A study of Homo sapiens with 33 samples.

Results

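The comparison described here set NB4 cells kept in DMSO for 120 h against NB4 cells that had received nothing. It was chosen by group label: the 3 libraries labelled DMSO at 120 h and the 3 labelled no treatment at 0 h, which are 6 of the 33 libraries of the series. NB4 is an established cell line from acute promyelocytic leukaemia, in which the PML-RARA fusion holds granulocyte precursors at the promyelocyte stage. The series followed cells in all-trans retinoic acid (ATRA) through 5 times, and the DMSO cultures were its controls. They show what changed in these cells over 120 h without ATRA.

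The untreated group was harvested at 0 h, carried neither ATRA nor DMSO, and has no untreated counterpart at a later time. The 120 h group received DMSO without ATRA, at a concentration not given in the sources used here, and the cultures were fed with freshly treated medium on day 3. Both groups grew in RPMI medium with 10% FBS. Each group held 3 biological replicates by the labels, numbered 2, 4 and 5, and values are given in that order throughout. The headers of the count table place the untreated libraries on lane 4, DMSO 120 h replicate 2 on lane 2, and DMSO 120 h replicates 4 and 5 on lane 3. Lane, DMSO and time in culture therefore cannot be told apart between these groups. For this reason the list counts stand beside those of 2 comparisons made within lanes. The first is DMSO at 120 h against DMSO at 24 h, where replicate 2 was on lane 2 and replicates 4 and 5 on lane 3 at both times. The second is DMSO at 12 h against untreated, all on lane 4. The first shares its 120 h libraries with the main comparison and the second shares its untreated libraries, so the values are set side by side and not counted as separate evidence.

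The 6 libraries held between 19838482 and 33184728 counted fragments. Log2 CPM correlated at 0.9895 or more among the untreated libraries, at 0.9899 or more among the 120 h libraries, and between 0.9809 and 0.9853 across the groups. All counts below are of the 22971 genes that passed a filter on low counts, and levels are CPM, counts scaled to library size, which do not correct for gene length and so compare libraries and not genes. A gene was called where edgeR's quasi-likelihood test gave a Benjamini-Hochberg adjusted p under 0.05. The cells expressed the promyelocyte markers MPO and PRTN3 at both times. Of 9 tested promyelocyte markers, 0 were called higher and 3 lower at 120 h. MPO, the peroxidase of azurophil granules, stood at 10900, 10700 and 11800 CPM in the untreated libraries and at 10200, 10200 and 8390 CPM at 120 h. PRTN3, proteinase 3, was at 969, 967 and 1060 CPM and then at 1000, 984 and 750 CPM. ELANE, neutrophil elastase, did not pass the filter in these cells.

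Several of the gene groups described below belong to well-studied control circuits. When oxygen falls, prolyl hydroxylases stop marking HIF1A for destruction, and the HIF complex switches on glucose transporters, glycolytic enzymes, mitophagy receptors and VEGFA. When membrane sterol falls, SCAP carries the SREBP factors out of the endoplasmic reticulum to be cut, and they switch on cholesterol and fatty acid synthesis. Immediate-early genes such as FOS and EGR1 are transcribed within minutes of a growth signal through the serum response factor SRF and are quickly shut off again. The labels state no medium analysis, oxygen measurement, cell density or cell count for these cultures.

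At 120 h, 2824 genes were higher than in untreated cells (12.3% of those tested) and 2202 were lower (9.59%). Without DMSO 120 h replicate 5 the lower genes numbered 1167 and the higher genes 2050. The larger changes were mostly increases: among called genes, 987 were at least 2-fold higher (4.3%) and 81 at least 2-fold lower (0.353%), together 1068 (4.65%). Of the 13418 protein-coding genes tested, 1707 rose and 2033 fell. Among the 10324 of them with at least 5 CPM in the higher group, 1280 rose and 1958 fell. Long non-coding genes rose more often than they fell, with 475 higher and 59 lower of 3156. The groups did not overlap in 8714 genes (37.9% of those tested), and in 96.9% of the called genes. Against DMSO at 24 h, 2883 genes were higher (12.6%) and 2215 lower (9.64%), of which 773 (3.37%) and 155 (0.675%) by at least 2-fold. At 12 h against untreated, 2565 genes were higher (11.2%) and 2644 lower (11.5%), of which 783 (3.41%) and 356 (1.55%) by at least 2-fold, together 4.96%. The list counts below are to be read against these shares of all genes, where medians were 0.024, 0.015 and 0.0 in the 3 comparisons. Most lists hold protein-coding genes, which at 120 h against untreated were called more often (27.9%) than all genes (21.9%). With library totals the last comparison gave 3787 higher and 1710 lower. The balance of small changes depends on the scaling of the libraries. With RLE size factors 2609 genes were higher and 2824 lower, with library totals 3109 and 1643, and with DESeq2 2517 and 2912. In bulk RNA a smaller share of cells of one kind and less RNA per cell cannot be told apart.

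**Figure D1:**
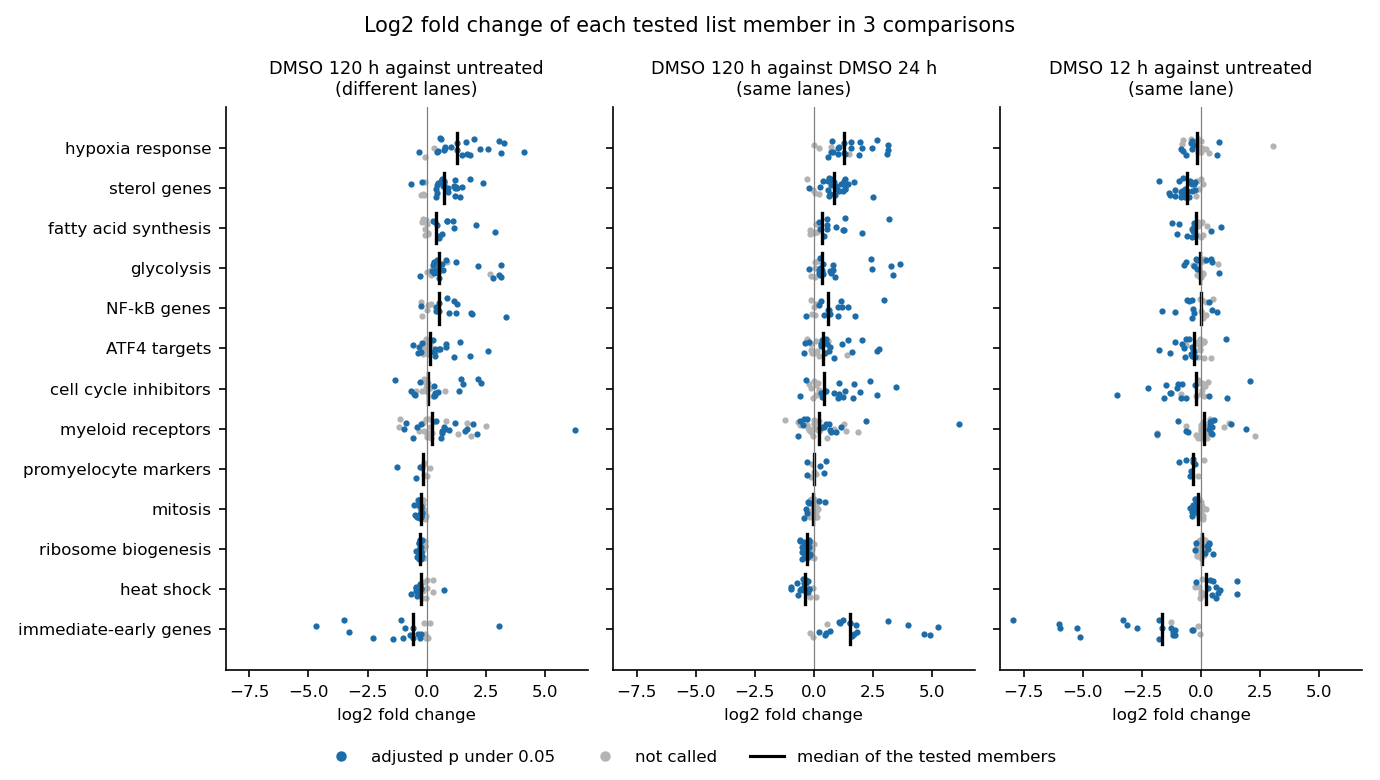
Log2 fold change of every tested member of 13 gene lists (points, 1 gene each) in DMSO 120 h against untreated, DMSO 120 h against DMSO 24 h and DMSO 12 h against untreated, blue where the adjusted p was under 0.05, with the median as a black bar. Hypoxia and sterol genes lie mostly to the right in both 120 h panels, and immediate-early genes lie to the left at 12 h and against untreated and to the right against 24 h.

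Genes of the hypoxia response rose at 120 h. Of 24 tested members, 21 were higher and 1 lower, against 12.3% and 9.59% of all genes, and 14 were at least 2-fold higher. Their median log2 change was 1.29, or 1.16 with EGLN3, which had 0 counts in every untreated library, set at its lower bound; over all genes the median was 0.02. The call for EGLN3 was lost against 24 h (log2 change 1.49, adjusted p = 0.324), and without DMSO 120 h replicate 2 (adjusted p = 0.19) or any untreated library (adjusted p from 0.0756 to 0.105). Within lanes, 20 members were higher and 0 lower against DMSO at 24 h, where 12.6% of all genes were higher. At 12 h against untreated, by contrast, 2 were higher and 7 lower, beside 11.2% and 11.5% of all genes.

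The promoters of 3 members are printed because the list moved together. The sequences come from RefSeq on GRCh38.p14, which gave promoters for 22 of the 26 listed members. Each runs from 250 bases before to 50 after the gene start. Capitals mark the core of the hypoxia element, ACGTG, searched on both strands; CACGTG, the E-box, holds it on both. BNIP3 (chr10:131981874-131982173, minus strand) and AK4 (chr1:65147302-65147601, plus strand) hold the E-box, and P4HA1 (chr10:73096817-73097116, minus strand) holds the core alone, on the opposite strand.
BNIP3: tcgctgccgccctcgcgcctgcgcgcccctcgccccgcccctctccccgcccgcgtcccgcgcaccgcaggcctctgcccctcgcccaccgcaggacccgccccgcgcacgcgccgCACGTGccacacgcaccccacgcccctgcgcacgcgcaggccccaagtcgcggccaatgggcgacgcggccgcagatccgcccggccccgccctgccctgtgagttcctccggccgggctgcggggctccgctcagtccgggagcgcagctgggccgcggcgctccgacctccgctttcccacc
AK4: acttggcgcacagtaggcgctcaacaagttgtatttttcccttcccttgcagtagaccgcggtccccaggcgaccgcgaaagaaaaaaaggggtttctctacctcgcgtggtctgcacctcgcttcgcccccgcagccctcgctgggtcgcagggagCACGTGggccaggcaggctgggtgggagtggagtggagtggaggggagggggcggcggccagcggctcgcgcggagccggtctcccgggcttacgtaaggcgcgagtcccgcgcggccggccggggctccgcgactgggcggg
P4HA1: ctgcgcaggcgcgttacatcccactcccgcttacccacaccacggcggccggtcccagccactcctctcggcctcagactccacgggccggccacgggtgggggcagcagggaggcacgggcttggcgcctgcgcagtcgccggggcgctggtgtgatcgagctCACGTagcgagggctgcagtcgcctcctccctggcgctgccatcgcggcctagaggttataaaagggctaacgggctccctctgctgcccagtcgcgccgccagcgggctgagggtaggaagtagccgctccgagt
The core was present in 12 of the 22 promoters, among them 11 of 17 from called-higher members and 0 of 3 from other tested members, and in 5900 of all 27305 promoters (21.6%). The E-box was present in 4 of the 22 and in 7.43% of all promoters. A match describes these letters in this window and says nothing of binding.

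Mitophagy receptors and stress proteins of the list rose. BNIP3, which tags mitochondria for removal, was at 45.3, 48.8 and 46.2 CPM in untreated cells and at 181, 193 and 194 CPM at 120 h, a log2 change of 2.01 ± 0.09 (SE; adjusted p = 5.82e-20). Its groups lay far apart with no overlap. BNIP3L, a related receptor, rose by 1.5 ± 0.11 (adjusted p = 2.18e-13) on the log2 scale.

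NDRG1, a stress-responsive protein, stood at 5.28, 6.54 and 7.76 CPM and then at 51.9, 54.1 and 57.7 CPM (log2 change 3.04 ± 0.12, adjusted p = 4.3e-22). DDIT4, an inhibitor of mTORC1, went from 34.3, 35.2 and 38.3 CPM to 206, 230 and 206 CPM (log2 change 2.57 ± 0.17, adjusted p = 2.03e-15). In both genes every 120 h library was above every untreated library. AK4, a mitochondrial adenylate kinase, rose from 19.7, 21.3 and 21.6 CPM to 71.9, 76.4 and 75.0 CPM (log2 change 1.83, adjusted p = 7.02e-17), again with no overlap.

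Secreted and feedback members also rose. VEGFA, the vascular growth factor, was at 41.2, 44.0 and 49.2 CPM in untreated cells and at 73.9, 77.9 and 79.2 CPM at 120 h (log2 change 0.78 ± 0.08, adjusted p = 2.63e-09). ADM, the vasodilator peptide adrenomedullin, rose by 2.24 on the log2 scale. P4HA1, the collagen prolyl hydroxylase, rose by 1.03, and EGLN1, the oxygen-sensing hydroxylase that marks HIF1A, by 0.59. PDK1, a kinase that inhibits pyruvate dehydrogenase, rose by 1.28 (adjusted p = 7.98e-15). Its mean went from 30.2 ± 1.15 CPM to 73.3 ± 6.36 CPM (SD, n = 3). The mRNA of HIF1A itself was lower, at 90.9, 86.4 and 85.0 CPM and then 74.2, 68.5 and 67.2 CPM (log2 change -0.32, adjusted p = 0.000749), but against 24 h within lanes it was at -0.01 (adjusted p = 0.976). EPAS1, the HIF2 alpha subunit, did not pass (log2 change 0.30, adjusted p = 0.226; 0.0462 without untreated replicate 2), and CA9, a carbonic anhydrase often used as a hypoxia marker, did not pass the filter on low counts.

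The rise came after 24 h in BNIP3, VEGFA and NDRG1. PFKFB4, another member, was already at a mean of 22.1 CPM at 4 h, against 10.3 CPM in untreated cells. BNIP3 had a mean of 48.4 CPM at 12 h, 50.6 at 24 h, 243 at 72 h and 189 at 120 h; VEGFA had 28.9, 32.1, 152 and 77.0 CPM, and NDRG1 7.62, 6.41, 126 and 54.5 CPM. Against 24 h, within lanes, the log2 change at 120 h was 1.91 for BNIP3, 1.26 for VEGFA and 3.09 for NDRG1. At 12 h, within lane 4, VEGFA fell by 0.64 on the log2 scale against untreated (adjusted p = 5.94e-07), while BNIP3 was at a log2 change of 0.05 (adjusted p = 0.756). The difference between 72 h and 120 h was not tested here.

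**Figure D2:**
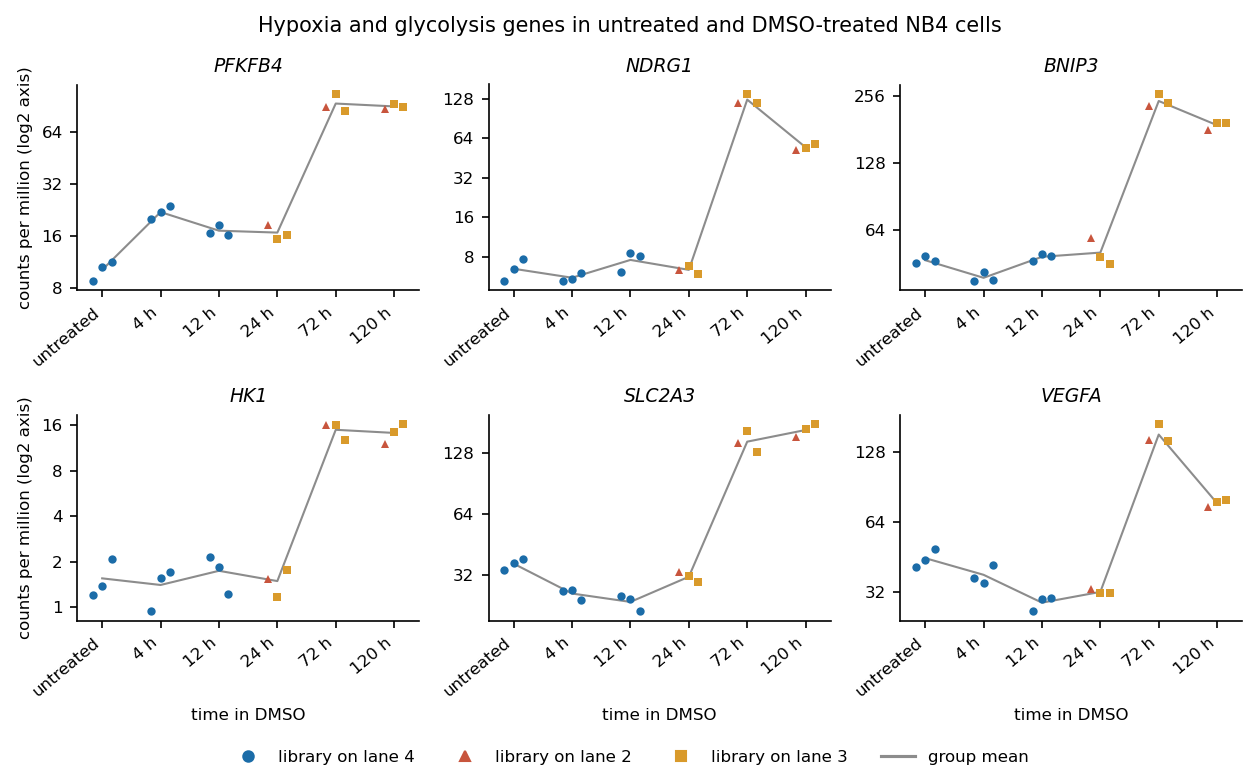
CPM (log2 axis, its range set per gene) of 6 hypoxia and glycolysis genes in untreated cells and after 4, 12, 24, 72 and 120 h in DMSO, times drawn at even spacing, with 1 point per library, its shape and colour giving the lane, and the group mean as a line. PFKFB4, NDRG1, BNIP3, HK1, SLC2A3 and VEGFA were higher in each 72 h and 120 h library than in each untreated library.

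Glycolysis genes rose with them. Of 25 tested members 19 were higher and 1 was lower, with a median log2 change of 0.53 (0.495 without the 1 member under 3 counts in both groups). Against 24 h the counts were likewise 19 and 1, and at 12 h against untreated 4 were higher and 6 lower. PFKFB4, which makes the activator of phosphofructokinase and is counted in both lists, went from 8.83, 10.6 and 11.3 CPM to 88.0, 93.6 and 89.9 CPM (log2 change 3.12 ± 0.11, adjusted p = 3.22e-23). With PFKP, PFKFB3 and SLC16A3, PFKFB4 was 1 of the 4 already higher at 12 h, at a mean of 17.3 CPM (log2 change 0.74, adjusted p = 8.44e-06).

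Transcripts for glucose entry and for the first step of glycolysis rose as well. SLC2A3, the high-affinity glucose transporter GLUT3, stood at 34.1, 37 and 38.6 CPM and then at 154, 168 and 178 CPM (log2 change 2.19 ± 0.10, adjusted p = 1.08e-19). HK1, a hexokinase, was low in untreated cells at 1.20, 1.38 and 2.09 CPM and reached 12.1, 14.4 and 16.3 CPM (log2 change 3.15 ± 0.20, adjusted p = 1.51e-15). Neither gene overlapped between the groups. HK2, the other main hexokinase, rose by 0.81 and SLC2A1, the transporter GLUT1, by 0.41 on the log2 scale.

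Enzymes further down the pathway changed to different degrees. LDHA, which makes lactate, was at 710, 734 and 674 CPM and then at 1160, 1130 and 1140 CPM (log2 change 0.69, adjusted p = 7.3e-10), and PGK1 rose by 0.64 (adjusted p = 2.42e-11). ENO2, an enolase isoform, rose from a mean of 2.54 ± 0.606 to 18.1 ± 2.31 CPM (SD, n = 3; log2 change 2.80). ALDOC, an aldolase isoform, rose by 3.06, but 60% of its exon length is shared with another gene on the same strand, so its fragments were counted for both. GAPDH was at 3300, 3210 and 3330 CPM and then 3430, 3450 and 2960 CPM, with overlapping groups (log2 change 0.00, adjusted p = 1.0). SLC16A1, a lactate transporter, was the member that fell, by 0.29, while SLC16A3, another, rose by 0.53 and was at 0.03 against 24 h (adjusted p = 0.891). A test against a 1.5-fold change passed 13 hypoxia and 7 glycolysis members.

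Genes of cholesterol synthesis rose nearly as a whole. Of 29 tested members of the sterol list, 23 were higher and 2 lower, with a median log2 change of 0.73, and 10 were at least 2-fold higher. Against 24 h, 24 were higher and 1 lower. At 12 h the list lay on the other side of the untreated cells: 0 were higher and 24 lower (median -0.60), so the same untreated libraries stood above the 12 h cells and below the 120 h cells.

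HMGCS1, the synthase that makes HMG-CoA, showed the largest rise of the list. It was at 141, 155 and 139 CPM in untreated cells, at a mean of 55.8 CPM at 12 h and 135 CPM at 24 h, and at 741, 762 and 772 CPM at 120 h (log2 change 2.39 ± 0.09, adjusted p = 1.8e-22). The 120 h libraries lay close together and far above the others.

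Further down the pathway MVD rose by 1.83, MSMO1 by 1.49, CYP51A1 by 1.21, FDPS by 1.19, DHCR7 by 1.14 and SQLE by 0.73 on the log2 scale. INSIG1, which holds the SREBP complex in the endoplasmic reticulum and is itself a target, stood at 256, 254 and 255 CPM and then at 631, 634 and 612 CPM (log2 change 1.30, adjusted p = 8.61e-19). At 12 h it was at a mean of 74.6 CPM, a fall of 1.77 on the log2 scale within lane 4 (adjusted p = 2.43e-22). ABCA1, the pump that exports cholesterol, moved the other way, from 87.9, 88.5 and 89.1 CPM to 54.9, 56.4 and 54.9 CPM (log2 change -0.68, adjusted p = 7.84e-07), but against 24 h within lanes it was at -0.03 (adjusted p = 0.882). Neither INSIG1 nor ABCA1 overlapped between the groups.

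The factors themselves differed, with SREBF2 called higher and SREBF1 not called. SREBF2, the sterol-directed factor, rose from 141, 135 and 147 CPM to 187, 233 and 167 CPM (log2 change 0.47, adjusted p = 0.00191). SREBF1, the factor for fatty acid genes, was at 140, 147 and 165 CPM and then at 145, 145 and 123 CPM, with overlapping groups (log2 change -0.13, adjusted p = 0.254). The promoter of SREBF2 (chr22:41832855-41833154, plus strand) is printed because it was the only one of 23 available from this list that held the classical sterol element TCACNCCAC, marked in capitals; 1.15% of all promoters held it on either strand.
SREBF2: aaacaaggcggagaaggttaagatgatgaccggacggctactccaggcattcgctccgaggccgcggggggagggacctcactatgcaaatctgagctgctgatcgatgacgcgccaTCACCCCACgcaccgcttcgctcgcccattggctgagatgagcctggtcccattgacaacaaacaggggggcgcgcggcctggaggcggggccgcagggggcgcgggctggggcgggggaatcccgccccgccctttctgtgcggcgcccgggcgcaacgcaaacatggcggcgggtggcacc

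**Figure D3:**
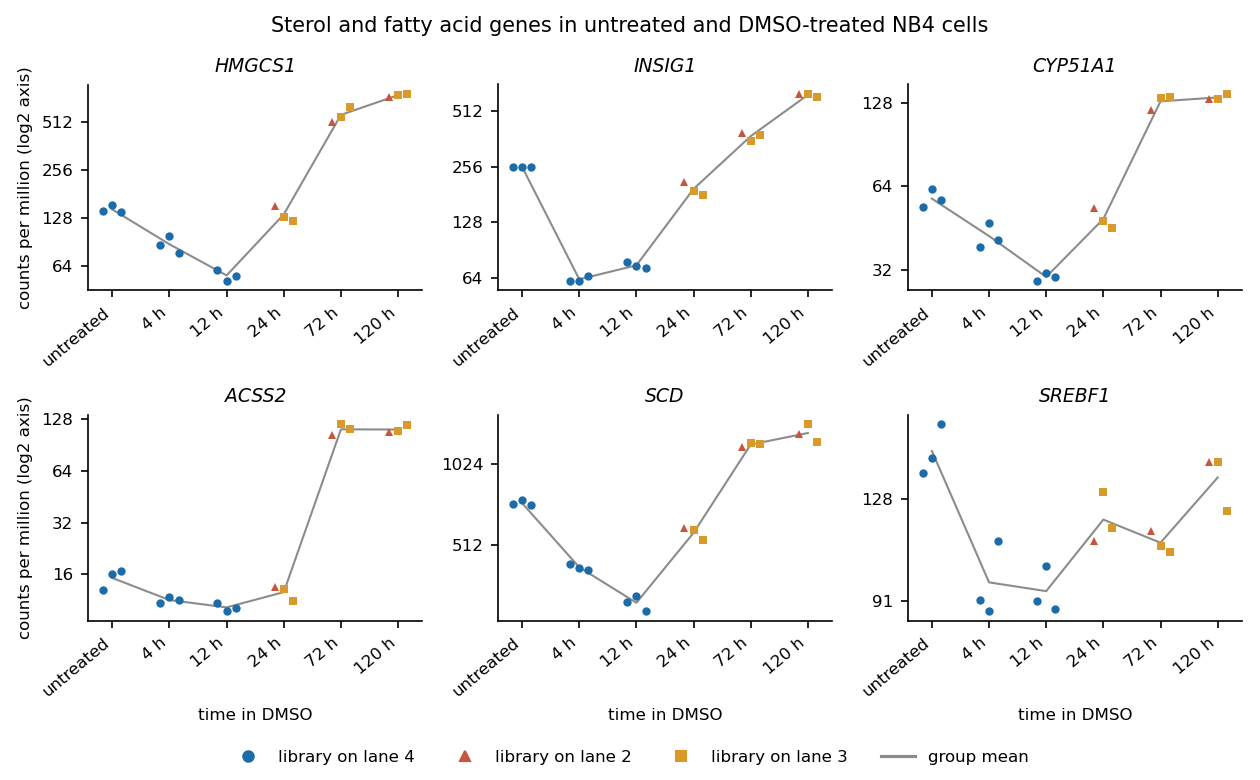
CPM (log2 axis, its range set per gene) of 6 sterol and fatty acid genes in untreated cells and after 4 to 120 h in DMSO, times drawn at even spacing, with 1 point per library, its shape and colour giving the lane, and the group mean as a line. For all 6 genes every 12 h library was below every untreated library, and for all but SREBF1 every 120 h library was above them.

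Genes of fatty acid synthesis followed in part. Of 20 tested members 12 rose and 0 fell, with a median log2 change of 0.39, and the counts against 24 h were the same. At 12 h, 2 were higher and 10 lower. ACSS2, which turns acetate into acetyl-CoA, went from 12.9, 16.1 and 16.6 CPM to 108, 109 and 118 CPM (log2 change 2.87 ± 0.08, adjusted p = 1.05e-25). PLIN2, a coat protein of lipid droplets, rose from 10.0, 11.3 and 11.4 CPM to 41.0, 46.6 and 49.9 CPM (log2 change 2.06, adjusted p = 7.31e-18). Both were free of overlap.

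The desaturases FADS1 and SCD rose by 1.11 and 0.86 and the synthase FASN by 0.52 on the log2 scale. SCD was at 727, 749 and 720 CPM, at a mean of 314 CPM at 12 h, and at 1320, 1430 and 1230 CPM at 120 h (adjusted p = 8.04e-12). ACACA, the carboxylase that starts the pathway, did not pass, though 93% of its exon length is shared with other genes. CPT1A, the gate to fatty acid oxidation, was at -0.08 (adjusted p = 0.418), and in the oxidation list 3 of 17 rose and 1 fell (median -0.08), with 5 and 0 against 24 h and 0 and 6 at 12 h. Against a 1.5-fold change, 12 sterol and 6 fatty acid synthesis members passed.

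Immediate-early genes were lower at 120 h than in untreated cells, but higher than at 24 h. Of 21 tested members, 14 were lower than untreated and 1 was higher, with a median log2 change of -0.56. Within lanes, 0 were higher and 18 lower at 12 h (median -1.67), and 18 were higher and 0 lower at 120 h against 24 h (median 1.51). The count of lower genes therefore depends on which cells are taken as the start.

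FOS, a subunit of the AP-1 factor, was at 74.0, 74.8 and 70.8 CPM in untreated cells and at 6.53, 6.97 and 5.84 CPM at 120 h (log2 change -3.51 ± 0.12, adjusted p = 2.05e-24). Its means in between were 1.48 CPM at 4 h, 1.90 at 12 h, 1.77 at 24 h and 4.91 at 72 h. FOSB, a related subunit, went from 27.9, 28.2 and 24.7 CPM to 0.702, 0.902 and 1.45 CPM (log2 change -4.69, adjusted p = 7.43e-21), the largest fall of any protein-coding gene that met the naming rule. Neither gene overlapped between the groups.

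The EGR factors fell to different depths. EGR1 stood at 56.7, 52.2 and 63.5 CPM, at a mean of 1.80 CPM at 24 h, and at 26.1, 27 and 28 CPM at 120 h (log2 change -1.09 ± 0.08, adjusted p = 3.04e-13). Against 24 h its log2 change was 3.96 (adjusted p = 8.99e-26). EGR3 fell by 3.29, EGR2 by 1.44 and NR4A1, an orphan nuclear receptor, by 1.02 on the log2 scale against untreated. JUN, the partner of FOS, was near its starting level at 38.9, 38.1 and 41.1 CPM and then 30.4, 35.2 and 30.8 CPM (log2 change -0.29, adjusted p = 0.0191). The call for JUN was lost without DMSO 120 h replicate 2 (adjusted p = 0.0796) or 5 (adjusted p = 0.093) or untreated replicate 5 (adjusted p = 0.0716). ATF3 and NR4A3 did not pass, at -0.04 (adjusted p = 0.838) and -0.07 (adjusted p = 0.88). IER3 was called higher, with means of 0.0677 and 0.569 CPM that rest on few fragments.

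Promoters were given for 15 of the 21 listed immediate-early genes, and 2 of them, EGR1 (chr5:138465229-138465528, plus strand) and SRF, held the CArG box that SRF binds, against 1.29% of all promoters. That of EGR1 is printed to show its pair of boxes, in capitals, ahead of the start of this early gene.
EGR1: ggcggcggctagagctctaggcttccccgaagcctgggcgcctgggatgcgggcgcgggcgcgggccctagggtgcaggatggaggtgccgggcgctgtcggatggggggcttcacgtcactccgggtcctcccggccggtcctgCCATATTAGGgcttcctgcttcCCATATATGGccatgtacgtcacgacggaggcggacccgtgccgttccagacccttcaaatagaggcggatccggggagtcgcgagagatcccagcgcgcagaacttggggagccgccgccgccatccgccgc
SRF itself was at 54.6, 50.2 and 58.0 CPM and then at 42.2, 47.0 and 36.3 CPM (log2 change -0.38, adjusted p = 0.0135), a call lost without DMSO 120 h replicate 5 (adjusted p = 0.132) or untreated replicate 5 (adjusted p = 0.0627) and against 24 h (adjusted p = 0.372).

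Feedback inhibitors of the MAPK pathway split, with 5 of 16 higher and 5 lower, 11 higher and 0 lower against 24 h, and 0 higher and 9 lower at 12 h. DUSP1, a phosphatase of p38 and JNK, went from 18.2, 15.7 and 15.7 CPM to 2.52, 2.67 and 2.56 CPM (log2 change -2.67, adjusted p = 2.5e-14). SPRY2, a Sprouty inhibitor, fell by 0.79 on the log2 scale. DUSP6, the ERK phosphatase, instead rose from 103, 94.7 and 97.3 CPM to 122, 145 and 141 CPM (log2 change 0.47, adjusted p = 9.61e-06). SOCS3, outside this list, the inhibitor of cytokine receptor signalling, was at 8.31, 7.78 and 8.23 CPM and then 1.07, 1.03 and 1.11 CPM (log2 change -2.91, adjusted p = 9.67e-16). Its groups did not overlap, nor did those of DUSP1 and DUSP6.

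**Figure D4:**
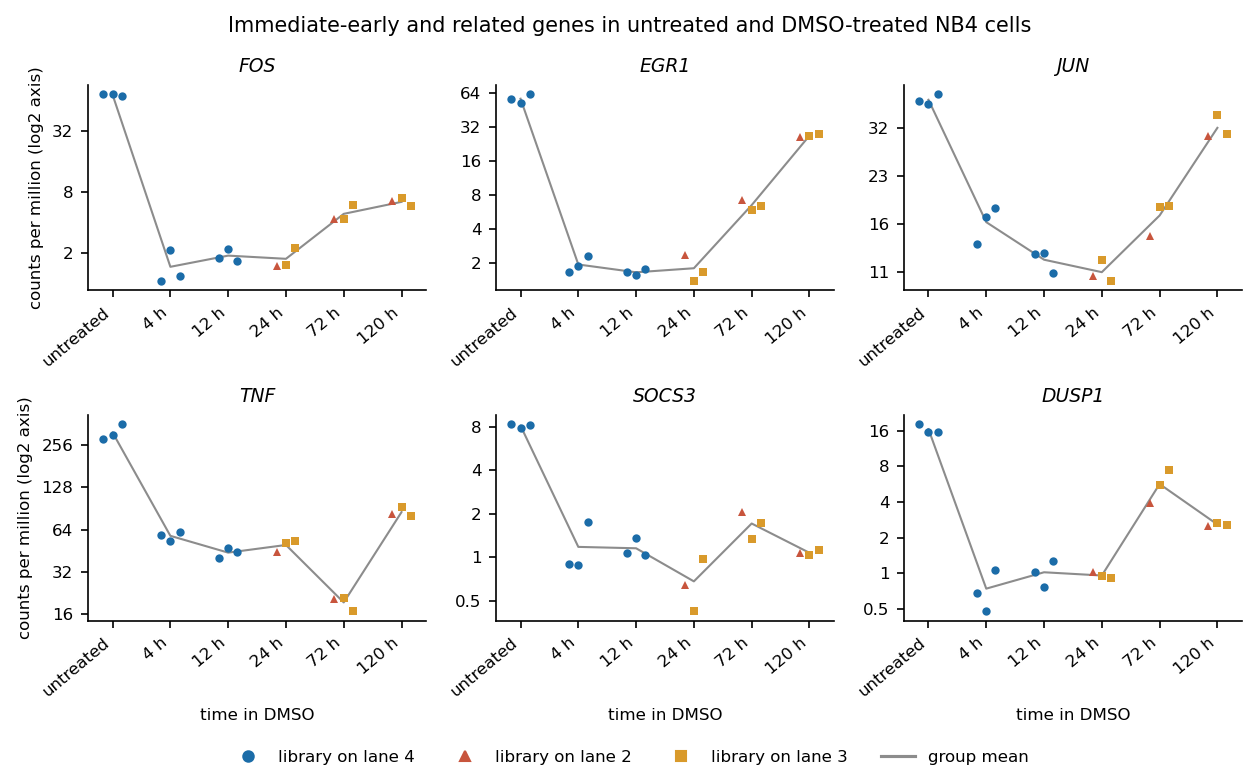
CPM (log2 axis, its range set per gene) of FOS, EGR1, JUN, TNF, SOCS3 and DUSP1 in untreated cells and after 4 to 120 h in DMSO, times drawn at even spacing, with 1 point per library, its shape and colour giving the lane, and the group mean as a line. All 6 genes were lower in every 4 h library than in every untreated library, and JUN and EGR1 came closest to the untreated level again by 120 h.

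Targets of NF-kB rose. Of 19 tested members 13 rose and 1 fell, with a median log2 change of 0.52, and against 24 h the counts were again 13 and 1. At 12 h against untreated 3 were higher and 8 lower. TNFAIP3, the deubiquitinase A20 that restrains NF-kB, went from 37.8, 39.2 and 41.9 CPM to 144, 160 and 151 CPM (log2 change 1.93 ± 0.09, adjusted p = 1.4e-19). ICAM1, an adhesion molecule, went from 31, 32.4 and 34.8 CPM to 118, 126 and 116 CPM (log2 change 1.87, adjusted p = 1.32e-16). TRAF1, an adaptor of TNF receptors, rose from 0.784, 1.41 and 1.46 CPM to 12.2, 12.8 and 13.9 CPM (log2 change 3.35, adjusted p = 2.49e-19). In these 3 genes every 120 h library was above every untreated one.

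Among the subunits NFKB2 rose by 1.29, RELB by 1.16 and NFKB1 by 0.37 on the log2 scale. RELA was at 48.9, 44.8 and 51.1 CPM and then at 47.3, 51.0 and 46.0 CPM, with overlapping groups (log2 change -0.01, adjusted p = 0.983). NFKBIA, the inhibitor that is itself a fast target, was the member that fell, by 0.26. TNF, a cytokine that is also an NF-kB target but stands in the cytokine list, fell from 282, 300 and 360 CPM to 83.0, 92.5 and 80.4 CPM (log2 change -1.88, adjusted p = 2.64e-17). CXCL8, the neutrophil chemokine, fell from 129, 150 and 158 CPM to 57.8, 70.0 and 71.8 CPM (log2 change -1.13, adjusted p = 2.96e-11). Both had been lower still at 24 h, at means of 49.8 and 24.7 CPM. In the cytokine list as a whole 8 of 27 rose and 4 fell, 13 rose and 0 fell against 24 h, and 3 rose and 7 fell at 12 h. The 1.5-fold test passed 7 immediate-early and 7 NF-kB members.

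Targets of ATF4, the factor induced by amino acid shortage, were mixed: 12 of 30 rose and 5 fell, with a median of 0.12, 17 rose and 3 fell against 24 h, and 1 rose and 15 fell at 12 h. STC2, a secreted glycoprotein, went from 9.83, 11.6 and 13.7 CPM to 38.5, 43.4 and 44.9 CPM (log2 change 1.84, adjusted p = 2.15e-13). TRIB3, a pseudokinase induced by stress, rose from 102, 106 and 120 CPM to 293, 300 and 276 CPM (log2 change 1.41, adjusted p = 7.02e-17). The 5 members that fell, transporters and enzymes of amino acids among them, changed by less than 1.5-fold. ATF4 itself was at a log2 change of 0.06 (adjusted p = 0.586), and at 0.37 against 24 h (adjusted p = 0.000111). DDIT4 and VLDLR, which rose by 2.57 and 1.17, are in this list too, and DDIT4 was also counted among the hypoxia genes.

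Inhibitors of the cell cycle and quiescence genes gave 10 higher and 5 lower of 27 (median 0.07), 16 higher and 2 lower against 24 h, and 3 higher and 12 lower at 12 h. TXNIP, a thioredoxin inhibitor induced by glucose products, went from 25, 26.7 and 24.6 CPM to 107, 116 and 115 CPM (log2 change 2.15, adjusted p = 1.11e-17). CDKN1A, the cyclin-dependent kinase inhibitor p21, rose from 1.20, 0.743 and 1.42 CPM to 3.96, 6.73 and 6.01 CPM (log2 change 2.31, adjusted p = 1.11e-11). CCNG2, a cyclin of resting cells, rose by 1.55 and BTG2, an antiproliferative gene, by 1.36 on the log2 scale. CDKN1B, the inhibitor p27, did not pass (log2 change 0.13, adjusted p = 0.245; against 24 h 0.28, adjusted p = 0.00966). KLF4, a factor of growth arrest and monocytes, fell from 8.31, 8.98 and 8.86 CPM to 3.43, 3.49 and 3.39 CPM (log2 change -1.35, adjusted p = 4.82e-09), and was at -0.20 against 24 h (adjusted p = 0.401). The p53 target list had 5 of 21 higher and 5 lower (median -0.03), 10 and 2 against 24 h, and 2 and 11 at 12 h. Tested against a 1.5-fold change, 5 ATF4 targets and 5 inhibitors passed.

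Mitotic genes were slightly lower. Of 38 tested members 0 rose and 21 fell, with a median log2 change of -0.23, and none reached a 2-fold change. The number that fell was 15 with library totals, 28 with RLE factors and 30 with DESeq2. It was 14 without DMSO 120 h replicate 5. CDC20, the activator of the anaphase-promoting complex, had the largest fall, from 175, 174 and 182 CPM to 132, 126 and 111 CPM (log2 change -0.53 ± 0.08, adjusted p = 6.61e-06). CCNB1, cyclin B1, fell by 0.35 on the log2 scale, and was at -0.15 against 24 h (adjusted p = 0.158). MKI67, the proliferation marker, was at 381, 438 and 364 CPM and then at 380, 372 and 363 CPM, with overlapping groups (log2 change -0.08, adjusted p = 0.515). At 72 h CCNB1 and MKI67 had means of 123 and 261 CPM, against 186 and 372 CPM at 120 h. UBE2C, another mitotic gene, had 17.9 and then 16.6 CPM. Of 43 S phase genes 1 rose and 5 fell (median -0.06), with 1 and 2 against 24 h and 6 and 1 at 12 h. The share that fell was near the 9.59% of all genes and below that of protein-coding genes (2033 of 13418). Against 24 h, 2 mitotic genes were higher and 5 lower, at 12 h 0 were higher and 10 lower, and tested against a 1.5-fold change 0 passed.

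Ribosome biogenesis showed the same small shift in more of its members. Of 36 tested, 0 rose and 26 fell (median -0.27), and against 24 h 0 were higher and 28 lower, while at 12 h 6 were higher and 2 lower than untreated. NOP16, a nucleolar protein, went from 87.1, 90.7 and 95 CPM to 69.8, 69.6 and 62 CPM (log2 change -0.44, adjusted p = 1.9e-06). NCL, nucleolin, fell by 0.30 and NOP56, a box C/D core protein, by 0.32 on the log2 scale. At 72 h NOP16 and NOP56 had means of 45.4 and 233 CPM, against 67.1 and 373 CPM at 120 h. MYC, a driver of this programme, went from 593, 622 and 645 CPM to 529, 508 and 453 CPM (log2 change -0.32, adjusted p = 0.00252), with no overlap, and was at 0.13 against 24 h (adjusted p = 0.243). Cytosolic ribosomal proteins gave 0 higher and 2 lower of 40 (median -0.12), but 19 higher and 0 lower against 24 h, and 0 higher and 40 lower at 12 h. Without DMSO 120 h replicate 5, 15 biogenesis genes were called lower, and tested against a 1.5-fold change 0 passed.

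Chaperones of the cytosol and of the endoplasmic reticulum fell in part. In the heat shock list 1 of 20 rose and 11 fell (median -0.26); against 24 h 0 were higher and 16 lower, and at 12 h 10 were higher and 1 lower than untreated. HSP90AA1, the inducible cytosolic HSP90, was at 1940, 2030 and 1840 CPM and then at 1250, 1260 and 1190 CPM (log2 change -0.65, adjusted p = 1.09e-06). Its mean was 548 CPM at 72 h and 1230 CPM at 120 h, while DNAJB4, the member that rose, had 7.41 and then 6.95 CPM. HSPA1A, the inducible HSP70, did not pass (log2 change 0.25, adjusted p = 0.266). Its fragments and those of HSPA1B, a near-identical copy, cannot be told apart.

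In the endoplasmic reticulum list 2 of 24 rose and 15 fell (median -0.21), against 3 higher and 4 lower when set against 24 h, and 1 higher and 13 lower at 12 h. HSPA5, the chaperone BiP, went from 539, 593 and 552 CPM to 380, 380 and 359 CPM (log2 change -0.59, adjusted p = 9.5e-09), and XBP1, a factor of this response, fell by 0.52 on the log2 scale. The endoplasmic reticulum count was 6 without DMSO 120 h replicate 5, and 9 without untreated replicate 2 or replicate 4. Tested against a 1.5-fold change, 0 members of either chaperone list passed.

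Transcripts of the mitochondrial genome fell, with 0 higher and 9 lower of 13 (median -0.63), although nearly all of their exon length is shared with another model on the same strand. Against 24 h 0 were higher and 7 lower, and at 12 h likewise 0 and 7. MT-CO3, a subunit of cytochrome oxidase, was at 2430, 2200 and 2440 CPM and then at 1370, 1300 and 1760 CPM (log2 change -0.68, adjusted p = 0.000424). Mitochondrial fragments made up 1.61 to 2.26% of the untreated libraries and 1.02 to 1.5% of the 120 h libraries. The count was 5 without untreated replicate 2, 5 without DMSO 120 h replicate 2 and 4 without DMSO 120 h replicate 4. In the nuclear-encoded respiratory chain 0 of 34 rose and 10 fell (median -0.12), with 0 and 5 against 24 h and 0 and 0 at 12 h.

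Myeloid receptors moved unevenly. Of 38 tested receptors and integrins 13 were higher and 5 lower, with a median log2 change of 0.23, and against 24 h 11 were higher and 5 lower. At 12 h, 10 were higher and 4 lower than untreated. CR1, the complement receptor CD35, climbed from 9.72, 12.1 and 12.1 CPM to 47.0, 46.1 and 54.1 CPM (log2 change 2.11 ± 0.09, adjusted p = 1.7e-20), with means of 12.7 CPM at 4 h, 15.7 at 12 h, 22 at 24 h and 34.3 at 72 h. ITGAX, the integrin CD11c, rose from 3.71, 4.00 and 4.88 CPM to 12.7, 13.9 and 14.9 CPM (log2 change 1.70, adjusted p = 6.16e-13). Neither overlapped between the groups. ITGAM, the integrin CD11b used to score granulocyte maturation, rose by 0.64 on the log2 scale and was at 0.22 against 24 h (adjusted p = 0.149). ITGB2, its partner, rose by 0.59.

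Fc receptors of the FCGR2 family were among the largest changes. FCGR2A went from 8.15, 8.49 and 8.07 CPM to 29.4, 30.7 and 35.4 CPM (log2 change 1.95, adjusted p = 2.03e-15). FCGR2B, the inhibitory receptor, was at 0.0523, 0.0707 and 0.127 CPM and reached 5.49, 6.97 and 8.88 CPM (log2 change 6.26 ± 0.31, adjusted p = 8.72e-19). These paralogs share exon length with neighbouring genes on the same strand, 36% for FCGR2A and 59% for FCGR2B, so the split of fragments between them is uncertain. TLR4, the endotoxin receptor, and TREM1 fell by 0.95 and 0.88 on the log2 scale. CSF3R, the G-CSF receptor, did not pass (log2 change 0.16, adjusted p = 0.199).

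Among granule proteins of later stages 8 of 17 were higher and 1 lower (median 0.64), with 4 and 1 against 24 h and 5 and 2 at 12 h. In the azurophil list 1 of 22 rose and 6 fell (median -0.14), but 6 were higher and 3 lower against 24 h, and 2 higher and 13 lower at 12 h. MMP9, gelatinase B, went from 54.6, 47.8 and 55.6 CPM to 147, 176 and 138 CPM (log2 change 1.55, adjusted p = 1.21e-13). CTSG, cathepsin G of azurophil granules, fell from 47.6, 48.0 and 43.9 CPM to 21, 19.4 and 18.5 CPM (log2 change -1.25, adjusted p = 3.98e-13), and was at -0.06 against 24 h (adjusted p = 0.705). MS4A3, a promyelocyte membrane protein, fell by 0.47. MPO was at a log2 change of -0.21 (adjusted p = 0.138) and PRTN3 at -0.13 (adjusted p = 0.309). MPO was called lower with no filter (adjusted p = 0.0255), limma-voom (adjusted p = 0.0498) and the compared groups alone (adjusted p = 0.0462). Several markers of the mature neutrophil were at or near 0, while CSF3R, given above, was at 37.1 CPM in untreated cells and 41.6 CPM at 120 h. LTF, lactoferrin, was called higher but stood at 0.0413, 0.328 and 0.311 CPM at 120 h, CAMP, a granule peptide, was at most 0.157 CPM in either group, and CEACAM8 and ARG1 were at 0 CPM at 120 h.

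NADPH oxidase genes gave 7 higher and 1 lower of 10 (median 0.32), but 3 and 2 against 24 h and 3 and 1 at 12 h, and 1 passed a test against a 1.5-fold change. NCF1, the p47 subunit, rose from 2.35, 2.19 and 2.28 CPM to 11.2, 13.8 and 10.3 CPM (log2 change 2.37, adjusted p = 6.68e-16), though near-identical copies of it exist in the genome and may share its fragments. CYBB, the catalytic subunit, rose by only 0.21 on the log2 scale, from 215, 212 and 190 CPM to 236, 241 and 238 CPM (adjusted p = 0.039). That call was lost on leaving out any library but untreated replicate 2 (adjusted p from 0.0539 to 0.213) and with RLE factors (adjusted p = 0.0779). It stood at a mean of 278 CPM at 24 h, so that it was lower at 120 h than at 24 h (log2 change -0.22, adjusted p = 0.0279).

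**Figure D5:**
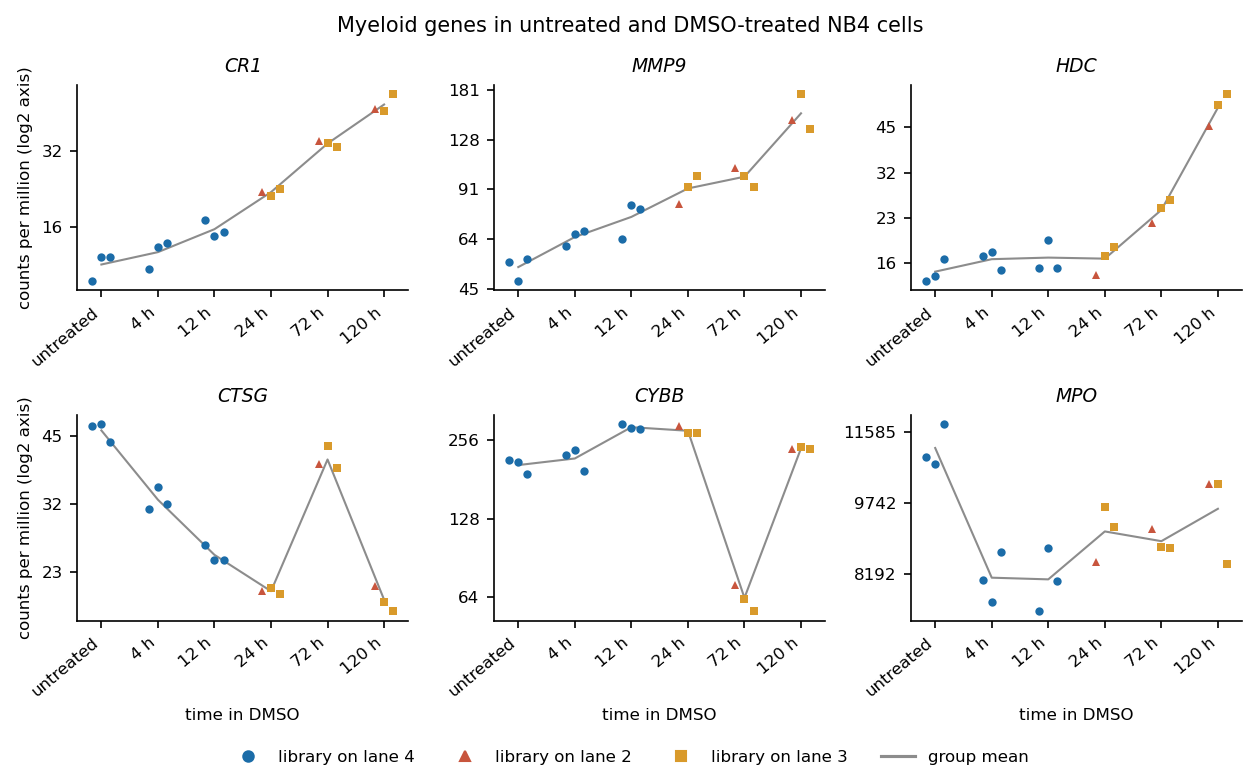
CPM (log2 axis, its range set per gene) of CR1, MMP9, HDC, CTSG, CYBB and MPO in untreated cells and after 4 to 120 h in DMSO, times drawn at even spacing, with 1 point per library, its shape and colour giving the lane, and the group mean as a line. The means of CR1 and MMP9 were higher at each later time, that of CTSG was higher at 72 h than at 24 h or 120 h, and that of CYBB was lowest at 72 h.

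Markers of eosinophils, basophils and mast cells rose in 7 of 15 tested genes and fell in 0 (median 0.65), and the same counts were found against 24 h. At 12 h 0 were higher and 3 lower. HDC, the enzyme that makes histamine, went from 14, 14.5 and 16.6 CPM to 45.6, 53.5 and 58.3 CPM (log2 change 1.80, adjusted p = 5.63e-16). PRG2, the eosinophil major basic protein, rose from 1000, 979 and 1010 CPM to 1900, 1890 and 1780 CPM (log2 change 0.90, adjusted p = 2.41e-08), although it shares 39% of its exon length. Both were without overlap. EPX, eosinophil peroxidase, rose by 0.50 and GATA1, a factor of these lineages and of red cells, by 1.12 on the log2 scale. RNASE3, CPA3 and MS4A2, the mast cell IgE receptor subunit, did not pass. The lowest log2 change of the list was -1.26. With the compared groups alone CPA3 was called lower (log2 change -1.245, adjusted p = 0.0497). The summed level of the list ranged from 1170 to 1200 CPM in untreated libraries and from 2020 to 2160 CPM at 120 h. PRG2 alone made up most of this sum in both groups and most of its rise. Tested against a 1.5-fold change, 3 members and 6 of the receptor list passed.

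Among the largest changes, the naming rule took the protein-coding genes of largest fold change with at least 5 CPM in the higher group and no overlap. The first was C6orf223 (chr6:43977737-44016690 on GRCh38), at 0.732, 0.884 and 1.01 CPM and then at 20.6, 23.5 and 21 CPM (log2 change 4.59 ± 0.17, adjusted p = 3.05e-23). NEDD9 (chr6:11179109-11382348), a scaffold protein of cell adhesion, went from 0.784, 0.566 and 0.412 CPM to 11.5, 13.3 and 14.3 CPM (log2 change 4.53, adjusted p = 4.7e-19). FLT1 (chr13:28278951-28496277), a receptor for VEGFA, went from 1.88, 1.77 and 1.46 CPM to 23.1, 28.4 and 31.2 CPM (log2 change 4.04, adjusted p = 1.99e-25). In these genes even the lowest 120 h library was many times above the highest untreated one.

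The others that rose were FCRLB, an Fc receptor-like gene (3.87), SLCO4C1, an organic anion transporter (3.42), PPFIA4, a liprin (3.34), CYTIP, a regulator of leukocyte adhesion (3.31), THBS1, thrombospondin (3.22), and CD300A, an inhibitory leukocyte receptor (3.05), each value a log2 change. TRAF1, HK1 and PFKFB4 complete the 12. Each of these 6 was also higher than at 24 h, by 3.95, 2.40, 3.04, 2.69, 1.63 and 3.27 in that order. Of the 12 largest falls, FOSB, FOS, EGR3, SOCS3, DUSP1, NR4A2, TNF and EGR2 belong to the early and signalling genes above. The remaining 4 were VAT1L (-2.12), RGS2, which dampens G protein signals (-2.07), CCL4L2, a chemokine with near-identical copies (-1.65), and OSR2, a zinc finger factor (-1.58). Of the 12, only VAT1L was also called lower against 24 h (-0.92, adjusted p = 0.000568). RGS2 and OSR2 were at -0.14 (adjusted p = 0.726) and 0.0075 (adjusted p = 0.992) against 24 h. FOSB, FOS, EGR3, DUSP1, TNF, EGR2 and CCL4L2 were called higher than at 24 h, CCL4L2 by 2.40 (adjusted p = 2.27e-07).

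Long non-coding genes of largest rise included hosts and neighbours of hypoxia genes. MIR210HG (chr11:563690-568478), which hosts the hypoxia-induced miR-210, was at 0.0523, 0.0707 and 0.253 CPM and then at 2.77, 2.75 and 3.90 CPM (log2 change 4.47, adjusted p = 9.66e-11). HIF1A-AS2 (chr14:61442976-61752711), on the strand opposite HIF1A, went from 0.314, 0.141 and 0.095 CPM to 3.39, 3.32 and 4.91 CPM (log2 change 4.52, adjusted p = 1.06e-10); counting was by strand. LINC01862 (log2 change 5.15) and LUCAT1 (3.60) were the other 2. HIF1A-AS2 and LUCAT1 were already higher at 12 h, by 1.86 (adjusted p = 0.0202) and 1.70 (adjusted p = 0.000685). MIR210HG and LINC01862 were not called at 12 h (adjusted p = 0.268 and 0.588). In untreated cells these 4 genes rested on 7 to 18 fragments over 3 libraries. The long non-coding genes that fell most by the same rule were AC020916.1 (-0.88), MIR181A1HG (-0.74), AC009005.1 (-0.67) and AC027097.2 (-0.50), each by less than 2-fold, and all 4 calls were lost against 24 h (adjusted p from 0.168 to 0.568). The call for AC027097.2 was lost without DMSO 120 h replicate 2 or 5 or untreated replicate 2 or 4 (adjusted p from 0.0569 to 0.109), and that for MIR181A1HG without DMSO 120 h replicate 2 or 4 (adjusted p = 0.0602 and 0.058).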

How the data were processed

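Total RNA of NB4 cells was read as stranded 150 bp pairs on a HiSeq 3000, in 2 technical runs per replicate, per the labels. The authors deposited raw fragment counts per gene, made with featureCounts 1.5.1 (strand setting 2, fragments, a fragment overlapping several genes counted in each), per the file headers, on GRCh38 with Ensembl genes merged with FANTOM CAT models. Trimmomatic 0.36, STAR 2.5.2b and Subread 1.5.1 stand in the submitters' processing notes. The table holds 85160 genes and 1 column per library.

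All 33 libraries entered 1 fit with a mean per group: edgeR 4.0.16 in R 4.3.3, TMM scaling, filterByExpr (22971 genes kept), the quasi-likelihood F test and Benjamini-Hochberg adjustment at 0.05. The fit pools the spread over groups (common biological coefficient of variation 0.0769). CPM are on TMM-scaled libraries, and SE is that of the log2 change. The fit was tested on simulated data with known changes.

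The members and gene lists were chosen with earlier results of these data known, so a list is described by its counts, to be read against the shares of all genes called, with no test over the list. Named genes are the 12 rising and 12 falling protein-coding genes of largest change (adjusted p under 0.05, at least 5 CPM in the higher group, no overlap, under 25% shared exon length), 4 and 4 long non-coding genes at 2 CPM, and list members of smallest p or known role. Some genes are not reported here. Genes named for other reasons were chosen after their values were seen. Replicate pairs of a group differed by more than sampling noise (chi-square per gene 4.14 to 21.9). Deviations of same-numbered libraries of the 2 groups correlated at -0.012 to -0.002 over all genes. No pairing by number was seen this way, but this measure cannot exclude one. Alternatives were RLE factors, library totals, no filter, DESeq2 1.42.0, limma 3.58.1 with voom, the compared groups alone, a replicate block, left-out genes, a 1.5-fold threshold and each replicate left out.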

Additional observations from a re-analysis of the deposited data

How the results depend on the processing

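Of 353 values under other settings 310 kept within 1.5 times and 43 did not. Tested against a 1.5-fold change, genes higher and lower numbered 560 and 35 at 120 h against untreated, 529 and 43 against 24 h, and 310 and 179 at 12 h. The members were 13 for hypoxia, 7 for glycolysis, 12 for sterols, 6 for fatty acids, 5 for ATF4, 5 for cell cycle inhibitors, 7 for immediate-early genes, 7 for NF-kB, 1 for NADPH oxidase, 6 for receptors and 3 for eosinophil, basophil and mast cell markers. They were 0 for mitosis, ribosome biogenesis, heat shock, the endoplasmic reticulum and mitochondrially encoded genes. With genes sharing exons left out, which tests fewer genes, the counts were 1516 and 1199, 1550 and 1147, and 1393 and 1456. With DMSO at 24 h in place of untreated, inhibitors had 16, immediate-early genes 0, mitosis 5, the endoplasmic reticulum 4 and NADPH oxidase 3. With library totals 1710 genes were lower at 12 h and 3787 higher; the cause was not tested.

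Leaving out 1 replicate gave 2050 to 2556 genes higher and 1167 to 1956 lower at 120 h against untreated, 2229 to 2586 and 1290 to 2025 against 24 h, and 1798 to 2238 and 1998 to 2264 at 12 h. Without DMSO 120 h replicate 5 the lower counts were 1167 and 1290. Members ranged from 15 to 25 for ribosome biogenesis, 6 to 12 for the endoplasmic reticulum and 4 to 10 for mitochondrially encoded genes, a list with no value where mitochondrial genes were left out. The replicate block gave 2959 genes higher and 2450 lower, and whether the numbers pair the samples was not settled. With 3 libraries a group, falls as small as those of the mitosis and ribosome biogenesis genes lie near what the test can call.

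With DMSO at 24 h in place of untreated, 30 named genes had the opposite sign, with log2 changes of 0.29 (AHR), 1.62 (ATF3), 0.12 (BST2), 2.40 (CCL4L2), 1.44 (CXCL8), -0.22 (CYBB), -0.36 (CYP1B1), 1.44 (DUSP1), 3.96 (EGR1), 4.89 (EGR2), 5.24 (EGR3), 1.83 (FOS), 1.68 (FOSB), -0.98 (HSPA1A), -0.97 (HSPA1B), 0.52 (IFI6), 1.51 (JUN), 0.13 (MYC), 0.59 (NFKBIA), 1.52 (NR4A1), 0.56 (NR4A2), 4.67 (NR4A3), 0.0075 (OSR2), 0.35 (PMAIP1), 0.64 (SOCS3), 0.82 (SPRY2), 0.24 (TIPARP), 0.77 (TNF), 0.65 (TREM1) and 0.037 (XBP1). The cause was not tested.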

Other observations

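Factors of lineage choice moved apart at 120 h. Of 32 tested myeloid transcription factors 12 rose and 7 fell (median 0.10), beside 12.3% and 9.59% of all genes, with 13 and 2 against 24 h and 8 and 11 at 12 h. Of 15 stem and progenitor genes 4 rose and 5 fell, with 2 and 1 against 24 h and 2 and 5 at 12 h. GATA2, a factor of progenitors, basophils and mast cells, stood at 39.8, 38.8 and 39.8 CPM in untreated cells and at 111, 119 and 103 CPM at 120 h (log2 change 1.49, adjusted p = 4.52e-16). GFI1B, a repressor of red cell and platelet precursors, went from 0.941, 1.31 and 1.42 CPM to 6.11, 6.73 and 6.74 CPM (log2 change 2.37, adjusted p = 2.25e-14). Neither overlapped between the groups. CEBPE, a factor of late granulocytes, rose by 0.32 on the log2 scale and was at 0.12 against 24 h (adjusted p = 0.356), and FLT3, a progenitor receptor, fell by 0.92.

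Markers of other cells gave small sums. Over the monocyte list 3 of 11 rose and 1 fell (4 and 0 against 24 h, 4 and 0 at 12 h), and its summed level was 57.9 to 61.1 CPM in untreated libraries and 74.9 to 86.6 CPM at 120 h. Of the neutrophil list 1 of 9 rose (1 and 1 against 24 h, 1 and 0 at 12 h), with sums of 37.6 to 45.5 and 42.1 to 48.0 CPM. Of 17 erythroid and megakaryocyte markers 3 could be tested and 9 were at 0 in all 6 libraries. Their sum was 4.44 to 5.92 CPM and then 7.67 to 7.97 CPM. Lymphocyte markers summed to 133 to 146 and 130 to 164 CPM. Promyelocyte markers summed to 13800 to 14900 CPM in untreated libraries and 11000 to 13300 CPM at 120 h, and 3 of 9 fell, with 3 higher and 2 lower against 24 h and 0 and 7 at 12 h. The part of these cell types in the results was not tested.

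Retinoid genes rose in 10 of 22 and fell in 3 (median 0.48), in cells that received no ATRA, with 5 and 2 against 24 h and 5 and 1 at 12 h. STRA6, a retinol transporter, went from 2.98, 3.54 and 3.51 CPM to 12.1, 13.5 and 12.2 CPM (log2 change 1.89, adjusted p = 2.38e-15), and was already at a mean of 18.2 CPM at 4 h. DHRS3, a retinal reductase, went from 2.25, 1.87 and 2.03 CPM to 6.19, 5.70 and 5.22 CPM (log2 change 1.48, adjusted p = 5.86e-10), with a mean of 1.71 CPM at 4 h and 12.2 CPM at 72 h. Both were without overlap. CD38, a surface enzyme used to follow ATRA treatment, rose by 0.73 and was at a log2 change of 0.06 against 24 h (adjusted p = 0.549).

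Targets of the aryl hydrocarbon receptor gave 4 higher and 3 lower of 10, 4 and 2 against 24 h, and 4 and 4 at 12 h. CYP1B1, a cytochrome of this response, was at a mean of 39.5 CPM in untreated cells, 220 CPM at 4 h, 140 at 12 h, 88.8 at 24 h and 69.1 at 120 h (log2 change 0.81 against untreated, adjusted p = 3.68e-11). TIPARP, another target, fell by 0.65 and AHR itself by 0.46 on the log2 scale. Targets of NRF2, the factor of oxidative stress, gave 5 higher and 7 lower of 26, 2 and 12 against 24 h, and 14 higher and 2 lower at 12 h. NQO1, a quinone reductase, was at 45.1, 45.9 and 43.2 CPM and then at 29.4, 31.3 and 31.5 CPM (log2 change -0.54, adjusted p = 1.12e-05), with a mean of 67.3 CPM at 12 h.

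Of 40 interferon-stimulated genes 13 were higher and 6 lower than untreated (median 0.28), 14 were higher and 1 lower against 24 h, and 1 was higher and 15 lower at 12 h. IFI6 fell by 0.70, BST2 by 0.51 and IRF1 rose by 0.32 on the log2 scale. Among chemokines CXCL10 rose by 2.03 and CCL20 by 1.62. In the BCL2 family 4 of 19 rose and 3 fell, with 8 and 1 against 24 h and 2 and 7 at 12 h. BBC3, the cell death gene PUMA, went from 8.36, 7.39 and 11 CPM to 24.7, 26.5 and 22.3 CPM (log2 change 1.45, adjusted p = 9.81e-14). PMAIP1, the related NOXA, went from 27.1, 27.2 and 26 CPM to 10.2, 11 and 12.1 CPM (log2 change -1.27, adjusted p = 3.15e-12). These p53 targets thus moved in opposite directions against untreated cells only. Against 24 h both were higher, BBC3 by 2.01 (adjusted p = 2.1e-17) and PMAIP1 by 0.35 (adjusted p = 0.0227). At 12 h both were lower than untreated, by 0.86 and 1.54.

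Iron and metal genes changed little as lists, with 4 of 13 iron genes higher and 1 lower and 2 of 7 metallothionein and zinc genes higher. Against 24 h the iron counts were 6 and 2 and the metal counts 3 and 1, and at 12 h they were 4 and 2, and 1 and 0. TFRC, the transferrin receptor, went from 616, 642 and 592 CPM to 878, 882 and 882 CPM (log2 change 0.51, adjusted p = 1.49e-07). MT2A, a metallothionein with close paralogs, rose by 1.28. Of 46 lysosome and autophagy genes 7 rose and 3 fell, near the shares of 12.3% and 9.59% over all genes. The share that fell was below that of protein-coding genes (2033 of 13418). Against 24 h 17 rose and 4 fell, and at 12 h 6 rose and 15 fell. Of 18 genes of MHC class I presentation 0 rose and 4 fell, while 9 rose and 1 fell against 24 h, and 0 rose and 13 fell at 12 h. Of 17 coagulation genes 6 rose and 1 fell, with 7 and 3 against 24 h and 5 and 2 at 12 h. PLAUR, the urokinase receptor, rose by 1.00. Replication-dependent histones gave 0 higher and 5 lower of 44, with 1 and 3 against 24 h and 5 and 2 at 12 h. The share that fell was near that of all genes and below that of protein-coding genes. Of 16 snoRNA host genes 0 rose and 0 fell, with 3 and 3 against 24 h and 0 and 3 at 12 h.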
